A study of Mus musculus with 12 samples.

Results

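The CD3 chains (Cd3d, Cd3e, Cd3g and Cd247), the pre-T cell receptor alpha chain (Ptcra) and the constant genes of the alpha and beta receptor chains (Trac, Trbc1 and Trbc2) were followed as 8 genes out of 51734 gene symbols in mouse thymus RNA. They were taken by symbol, with no measured value in the rule. The libraries were 9 T cell acute lymphoblastic leukemias from the thymus of mice carrying an IL-7 receptor alpha chain whose expression tetracycline induces (doxycycline-induced, by the sample titles), and 3 thymus libraries from healthy control mice. The strain was given as F5 for both groups, and no label named the promoter behind the inducer, the age of the mice or the source of each replicate, so p-values measured only the spread between these libraries, which may be technical. Il7r, the induced gene, stood at 33.3 to 513 CPM (counts relative to the scaled library size) in tumors 1 to 6, with 5.03 to 5.63 CPM in tumors 7 to 9, against 2.52 to 3.20 CPM in the controls.

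The alpha and beta chains of the T cell receptor have no signaling tail of their own. The receptor reaches the cell surface with the CD3 gamma, delta and epsilon chains and the zeta chain encoded by Cd247, whose ITAM motifs are phosphorylated by Lck and then bind Zap70. In the thymus, a rearranged beta chain first pairs with the Ptcra product as the pre-T cell receptor, and the alpha chain replaces it after its own rearrangement.

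The libraries fell into separate compositions that cut across the groups. No label separates tumors 1 to 6 from tumors 7 to 9, and this split follows the composition measured here. Any p-value for either set therefore belongs to a set of tumors chosen from these data. Mitochondrial genes took 31.6% to 69.3% of counts in tumors 1 to 6, with 2.54% to 11.1% in tumors 7 to 9, against 0.0949% to 6.73% in the controls. The 1449 olfactory and vomeronasal receptor genes, which thymocytes do not use and which serve as silent genes here, had a median of 0 to 0.106 TPM (the length-corrected share of a library) in tumors 1 to 6, with 0.443 to 1.60 TPM in tumors 7 to 9, against 1.39 to 1.88 TPM in the controls. In the controls 99.1% to 99.4% of these receptor genes had a count, so the level of silent genes there is given beside each member below. Library totals were 11617558 to 34769677 estimated counts in tumors and 8132929 to 12019665 in controls, with 860 to 28123 counts on the 8 members in a tumor and 1076 to 2506 in a control.

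Cd3d, Cd3e and Cd3g lie together on chromosome 9 of GRCm38, where Cd3g (chr9:44969572-44980431, minus strand) and Cd3d (chr9:44981786-44987339, plus strand) start 1355 bases apart and are read away from each other. Cd3e (chr9:44998740-45009627, minus strand) starts 27841 bases from the start of Cd3d. Promoters are shown for this divergent pair, whose share of CD3 RNA differed between libraries, and for Ptcra, the member not called in tumors 1 to 6. Each runs over the 250 bases before the RefSeq start on GRCm38.p6, written along the gene's own strand, and capitals mark matches on either strand to CAGGTG (a form of the E-box), AGGAAG (ETS type), TGTGGT (RUNX type), AGATAA (as bound by Gata3), GTGGGAA (CSL type) or TATAAA (an element of some core promoters).
Cd3g (chr9:44980432-44980681): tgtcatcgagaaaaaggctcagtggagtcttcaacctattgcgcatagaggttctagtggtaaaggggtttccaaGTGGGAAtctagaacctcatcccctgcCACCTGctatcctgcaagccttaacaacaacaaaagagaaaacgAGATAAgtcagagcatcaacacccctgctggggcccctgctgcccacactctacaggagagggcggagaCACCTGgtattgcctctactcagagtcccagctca
Cd3d (chr9:44981536-44981785): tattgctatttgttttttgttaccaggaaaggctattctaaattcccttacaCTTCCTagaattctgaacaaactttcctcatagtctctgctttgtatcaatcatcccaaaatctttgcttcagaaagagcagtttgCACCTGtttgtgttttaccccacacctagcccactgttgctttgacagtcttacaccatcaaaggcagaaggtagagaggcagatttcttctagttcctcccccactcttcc
Ptcra (chr17:46763713-46763962): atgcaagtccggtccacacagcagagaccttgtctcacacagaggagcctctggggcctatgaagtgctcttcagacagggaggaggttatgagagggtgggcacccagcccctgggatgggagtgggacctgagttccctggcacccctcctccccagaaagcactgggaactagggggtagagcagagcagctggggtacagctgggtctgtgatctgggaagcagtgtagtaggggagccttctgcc
In capitals, the Cd3g stretch held CAGGTG at 2 places, as its reverse complement, with 1 GTGGGAA and 1 AGATAA, and the Cd3d stretch held 1 CAGGTG and 1 AGGAAG, both as reverse complements. Among all 32851 promoters of that length, 17.2% held CAGGTG, 29.5% AGGAAG, 9.99% AGATAA and 5.42% GTGGGAA. The Ptcra stretch held none of the 6 motifs, and it held the general E-box CANNTG, of which CAGGTG is 1 form, at 2 places, as did 66.2% of promoters at least once. Promoter entries were matched for 5 of the 8 members. The Cd3e promoter, not shown, held AGGAAG at 2 places and the Cd247 promoter held CAGGTG and AGGAAG once each.

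Across all 9 tumors, no member was called higher or lower than the controls. edgeR's quasi-likelihood test called 0 of 40484 genes higher (0%) and 2 lower (0.00494%), with 7297 genes at an unadjusted p under 0.05, and 7 of the 8 members were among these, all but Ptcra. DESeq2 called 6 members higher (Cd3d, Cd3e, Cd3g, Cd247, Trbc1 and Trbc2), where it called 10.1% of all genes higher and 0.131% lower. In tumors 1 to 6 against the same controls, edgeR called 7 members higher, all but Ptcra, where 19.6% of 38534 genes were called higher and 20.3% lower; the composition of these tumors and their group cannot be told apart there. In TMM-scaled CPM the same 7 members lay above the highest control in each of tumors 1 to 6, as did 20.3% of genes. In TPM, which is not scaled for composition, this held for 3 members, Cd3e, Cd247 and Trbc2, and for 1.21% of genes, while Cd3g was above the highest control in 4 of these tumors, Trbc1 in 3, Cd3d in 2, Trac in 1 and Ptcra in 0. In CPM, 0 members lay above the highest control in all 9 tumors, as did 1.63% of genes. With control 1 left out, the same count of 7 members was called higher in tumors 1 to 6, where 15.9% of genes were called higher and 7.93% lower. In tumors 7 to 9 against controls, 0 members were called, with 0.0247% of 36420 genes called higher and 0.0247% lower. There 3292 genes had an unadjusted p under 0.05, with no member among them. No member lay above the highest control in all of tumors 7 to 9, where 7.23% of genes did. Over all genes the median change, on the log2 scale, was -0.45 for the 9 tumors, -1.29 for tumors 1 to 6 and -0.01 for tumors 7 to 9. All CPM values carry TMM factors, the trimmed mean of M-values. Scaling by library totals alone made the 9-tumor log2 fold changes smaller, at 2.74 for Cd3e, 2.08 for Cd3g, 2.07 for Cd247, 2.49 for Trbc1 and 2.55 for Trbc2. With that scaling Trac fell to 0.13 (edgeR adjusted p = 0.893), Cd3d to -0.15 and Ptcra to -1.59. On the log2(TPM + 1) scale the log2 fold changes were 0.93 for Cd3e, 1.37 for Cd3g, 0.70 for Cd247, 1.44 for Trbc1 and 1.07 for Trbc2. They were -0.27 for Cd3d, -0.59 for Trac and -1.70 for Ptcra on that scale.

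Cd3e, the epsilon chain, which pairs with either the gamma or the delta chain, was at 252, 162, 106, 101, 85.6 and 370.0 CPM in tumors 1 to 6 and at 3.99, 7.74 and 3.59 CPM in tumors 7 to 9, against 4.77, 3.38 and 2.79 CPM in controls 1 to 3. Tumor 6 was highest, and every one of tumors 1 to 6 stood far above the controls, while tumors 7 to 9 overlapped them. The log2 fold change was 5.05 ± 1.49 (SE) over 9 tumors (edgeR adjusted p = 0.128) and 5.37 ± 0.67 over tumors 1 to 6 (edgeR adjusted p = 5.4e-05).

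Cd3g, the gamma chain, was at 465, 372, 143, 185, 313 and 217 CPM in tumors 1 to 6 and at 12.4, 7.66 and 5.00 CPM in tumors 7 to 9, against 20.9, 2.87 and 2.06 CPM in controls 1 to 3. Control 1 lay above all of tumors 7 to 9, and controls 2 and 3 lay below them. The log2 fold change over 9 tumors was 4.47 ± 1.53 (edgeR adjusted p = 0.128) and became 5.96 ± 1.93 without control 1 (edgeR adjusted p = 0.496). Over tumors 1 to 6 it was 4.80 ± 0.83 with control 1 and 6.51 ± 0.78 without it, at edgeR adjusted p = 0.000561 and 0.000381.

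Cd247, the zeta chain, maps to chr1:165788681-165877277 on the plus strand and overlaps Pou2f1 on the other strand. It was at 56.7, 36.6, 95.1, 98.0, 68.7 and 72.2 CPM in tumors 1 to 6 and at 2.60, 4.91 and 1.17 CPM in tumors 7 to 9, against 2.49, 2.15 and 1.58 CPM in controls 1 to 3. All tumors but tumor 9 were above the highest control. Over all its forms, 54.4% of its 31-base words are shared with Pou2f1, and for its main coding form Cd247-201, which held most of the counts in tumors 1 to 6, the shared part was 10.5%. Its log2 fold change was 4.54 ± 1.31 over 9 tumors (edgeR adjusted p = 0.128) and 4.80 ± 0.45 over tumors 1 to 6 (edgeR adjusted p = 2e-05).

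Cd3d, the delta chain, differed least of the CD3 genes over the 9 tumors and over tumors 1 to 6, while in tumors 7 to 9 it had the largest log2 fold change among them, 0.58 (edgeR adjusted p = 0.636). Its level was 57.9, 60.2, 33.6, 41.6, 41.6 and 61.0 CPM in tumors 1 to 6 and 9.30, 23.5 and 13.0 CPM in tumors 7 to 9, against 12.7, 8.19 and 9.43 CPM in controls 1 to 3. All tumors but tumor 7 were above the highest control, with a log2 fold change of 1.91 ± 0.68 over 9 tumors (edgeR adjusted p = 0.134) and 2.01 ± 0.35 over tumors 1 to 6 (edgeR adjusted p = 0.000654). This direction turned with the scaling, to -0.15 over 9 tumors when libraries were scaled by their totals alone and to -0.27 on the log2(TPM + 1) scale. Cd3d-201 shares 4.10% of its 31-base words with other genes, up to 1038 of them for 1 word, all outside its coding part.

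**Figure D1:**
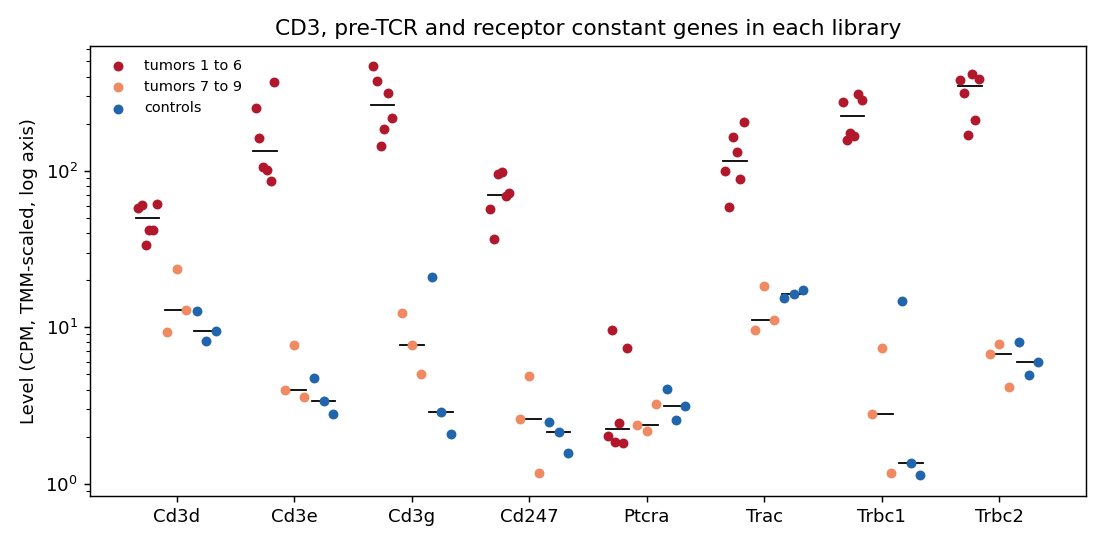
TMM-scaled CPM of each member (log axis), 1 point per library, for tumors 1 to 6, tumors 7 to 9 and controls, with the median of each set as a bar. On this TMM scale every member but Ptcra lies above all 3 controls in tumors 1 to 6 (in TPM this holds only for Cd3e, Cd247 and Trbc2), while tumors 7 to 9 overlap the controls, and control 1 stands above controls 2 and 3 for Cd3g and Trbc1.

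Per transcript length, Cd3g was the largest of the CD3 chains in most of tumors 1 to 6. Its share of the summed CD3 chain TPM averaged 49.6% ± 12.6 (SD, n = 6), that of Cd3e 25.7% ± 11.3, that of Cd3d 13.6% ± 5.58 and that of Cd247 11.1% ± 7.07. Cd3g took 61.7%, 63.8%, 38.9%, 46.6%, 54.2% and 32.2% in tumors 1 to 6, and tumor 6 was the exception, with 45.5% on Cd3e. On coding forms alone that exception turned round, with 43.1% on Cd3g and 39.9% on Cd3e in tumor 6. Cd247 took 21.5% and 18.1% in tumors 3 and 4, against 4.31% to 9.07% in tumors 1, 2, 5 and 6. The TPM ratio of Cd3g to Cd3e ran from 0.709 in tumor 6 to 4.37 in tumor 5. Shares depend on how length is treated, since counts per kilobase of the median transcript gave Cd3d 25.3% ± 2.85 and coding forms alone gave Cd3g 60.4% ± 9.76.

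By TPM, Cd3d led in tumors 8 and 9 and in controls 2 and 3, and on counts per kilobase it led in tumor 7 (63.7%) and control 1 (61.4%) too. By TPM it took 31.3%, 50.9% and 55.0% of CD3 chain TPM in tumors 7 to 9, and 25%, 47.6% and 52.7% in controls 1 to 3, each more than the 8.39% to 24.3% of tumors 1 to 6. Cd3g took 43.1%, 15.9% and 18.6% in tumors 7 to 9, against 58.2%, 13.7% and 14.5% in controls 1 to 3. Of these 6 libraries, tumor 7 and control 1 had a Cd3g share inside the 32.2% to 63.8% of tumors 1 to 6.

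**Figure D2:**
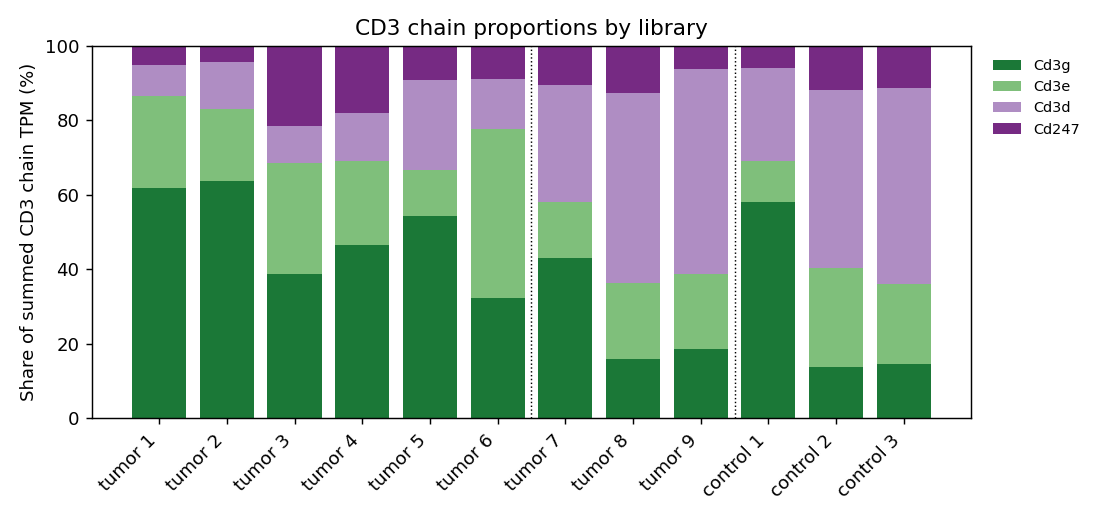
Share of each CD3 chain in the summed CD3 chain TPM (%), 1 stacked bar per library, with dotted lines between tumors 1 to 6, tumors 7 to 9 and controls. Cd3g is the largest part in tumors 1 to 5, Cd3e in tumor 6, and Cd3d in tumors 8 and 9 and controls 2 and 3.

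The transcripts behind the CD3 counts also differed between libraries. Transcripts not annotated as protein-coding, mostly retained-intron forms, took 3.06% to 12.5% of Cd3g counts in tumors 1 to 6 and 54.6%, 60.1% and 68.5% in tumors 7 to 9, against 15.8%, 76.8% and 78.1% in controls 1 to 3. The main coding form Cd3g-201 had 94.0, 72.3 and 44.5 estimated counts in tumors 7 to 9, against 531, 14.5 and 3.00 in controls 1 to 3. Control 1 therefore held most of the Cd3g-201 counts of the control group, and tumors 7 to 9 all lay above the other controls. The retained-intron form Cd3g-202 was closer together, at 117, 109 and 102 counts in tumors 7 to 9 and 99.6, 61.0 and 39.8 counts in controls 1 to 3.

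For Cd3e these forms took 14.1% to 45.6% of counts in tumors 1 to 6, with 41.1% to 61.6% in tumors 7 to 9, against 54.2% to 76.7% in the controls. For Cd247 they took 11.9% to 31.5% in tumors 1 to 6, with 24.7% to 42.5% in tumors 7 to 9, against 27.9% to 45.5% in the controls. Those of Cd3d were higher in tumors 1 to 6, at 3.05% to 10.9%, than in tumors 7 to 9, at 0.781% to 1.51%, or in the controls, at 0.801% to 1.79%. Cd3d also had a short coding form, Cd3d-202, at 356 counts in tumor 5 and at 0 to 47.6 counts in every other library. Deposited counts are kallisto's own division of reads among forms, and Cd3e also overlaps the gene models Gm48719 and Gm48720, so small differences between forms are uncertain.

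**Figure D3:**
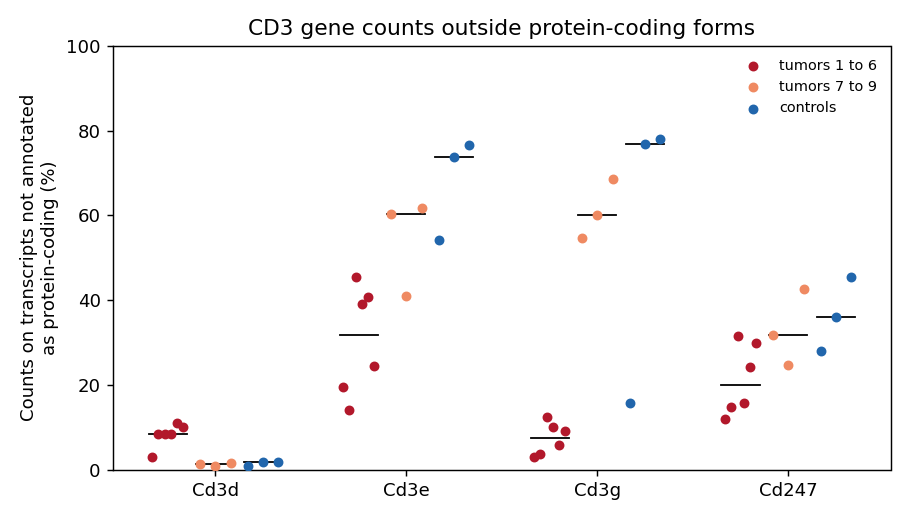
Percentage of each CD3 gene's estimated counts on transcripts not annotated as protein-coding, 1 point per library, with the median of each set as a bar. For Cd3g, tumors 1 to 6 lie at 3.06% to 12.5% and tumors 7 to 9 at 54.6% to 68.5%, and control 1 (15.8%) stands apart from controls 2 and 3.

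Trac (chr14:54220521-54224206, plus strand), the alpha constant gene, shares no 31-base word with another gene. It was at 99.7, 58.8, 164, 132, 88.8 and 204 CPM in tumors 1 to 6 and at 9.54, 18.4 and 11.2 CPM in tumors 7 to 9, against 15.3, 16.3 and 17.4 CPM in controls 1 to 3. Tumors 1 to 6 and tumor 8 were above the controls, and tumors 7 and 9 were below them. On the log2 scale the change was 2.42 ± 0.98 over 9 tumors (edgeR adjusted p = 0.175) and 2.64 ± 0.46 over tumors 1 to 6 (edgeR adjusted p = 0.000616), but -0.59 over 9 tumors on the log2(TPM + 1) scale.

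Trbc1 (chr6:41538218-41539881, plus strand) and Trbc2 (chr6:41546730-41548352, plus strand), the beta constant genes, start 8512 bases apart. Their coding parts are 518 bases each and 95.6% identical, with 23 mismatched bases and an identical run of 259 bases, and 65.8% of the 31-base words of each coding part occur in the other gene. The last 120 coding bases (399 to 518, in GENCODE M21 transcripts) are shown because they carry 19 of the 23 differences, marked in capitals, by which reads can be placed on either gene.
Trbc1: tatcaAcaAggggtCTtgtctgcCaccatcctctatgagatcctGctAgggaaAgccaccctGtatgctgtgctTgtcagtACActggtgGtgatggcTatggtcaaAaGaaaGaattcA
Trbc2: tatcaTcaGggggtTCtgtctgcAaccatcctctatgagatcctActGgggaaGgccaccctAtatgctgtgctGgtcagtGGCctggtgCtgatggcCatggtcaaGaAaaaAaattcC
Reads from the shared parts are divided between the genes by kallisto, so their sum is given too. It was 652, 471, 345, 581, 521 and 671 CPM in tumors 1 to 6 and 9.54, 15.1 and 5.30 CPM in tumors 7 to 9, against 22.8, 6.29 and 7.12 CPM in controls 1 to 3. Tumors 7 to 9 overlapped the controls, and control 1 was the highest of these 6 libraries.

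Trbc2 was at 379, 313, 171, 414, 211 and 389 CPM in tumors 1 to 6 and at 6.76, 7.79 and 4.12 CPM in tumors 7 to 9, against 8.05, 4.95 and 5.99 CPM in controls 1 to 3. Tumors 1 to 6 were all above the controls and tumors 7 to 9 overlapped them. Its log2 fold change was 5.05 ± 1.55 over 9 tumors (edgeR adjusted p = 0.128) and 5.34 ± 0.53 over tumors 1 to 6 (edgeR adjusted p = 2e-05).

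Trbc1 was at 273, 158, 174, 168, 310.0 and 282 CPM in tumors 1 to 6 and at 2.77, 7.36 and 1.17 CPM in tumors 7 to 9, against 14.7, 1.35 and 1.13 CPM in controls 1 to 3. As with Cd3g, control 1 stood above every one of tumors 7 to 9, here with 436 counts on Trbc1-202 against 29.3 and 17.6 in controls 2 and 3. The log2 fold change over 9 tumors was 4.73 ± 1.69 (edgeR adjusted p = 0.133) and became 6.67 ± 2.18 without control 1 (edgeR adjusted p = 0.496). Over tumors 1 to 6 it was 5.11 ± 0.89 with control 1 and 7.23 ± 0.75 without it, at edgeR adjusted p = 0.000583 and 0.000378.

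The split between the beta constant genes varied from tumor to tumor. Trbc1 took 40.6%, 32.4%, 51.4%, 28.7%, 58.2% and 42.6% of their summed TPM in tumors 1 to 6, a mean of 42.3% ± 11.2 (SD, n = 6). It took 27.7%, 47.9% and 22.8% in tumors 7 to 9, against 63%, 22.1% and 17.7% in controls 1 to 3. The first cluster of beta joining segments (Trbj1) lies before Trbc1 and the second (Trbj2) between Trbc1 and Trbc2. Of the joining segment counts, Trbj1 took 84.5% (exact 95% interval 81.0% to 87.7%, 472 counts), 78.7%, 74.8%, 66.7%, 90.5% and 83.8% in tumors 1 to 6, with the widest interval in tumor 4, 52.9% to 78.6% on 57 counts. In each of these tumors the Trbj1 share of joining segments was higher than the Trbc1 share of constant genes. These are unlike measures, since the Trbj1 share is of counts with no length correction and the Trbc1 share is of TPM. The leading segments of the first cluster were Trbj1-1, Trbj1-2 and Trbj1-3, with 340, 433 and 253 counts in tumor 6, and those of the second were Trbj2-1, Trbj2-4 and Trbj2-7, with 126, 35 and 29 counts there. Tumors 7 to 9 had 3, 17 and 26 joining segment counts and controls 1 to 3 had 30, 16 and 7, too few to give a share within narrow limits. The intervals cover counting error only.

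**Figure D4:**
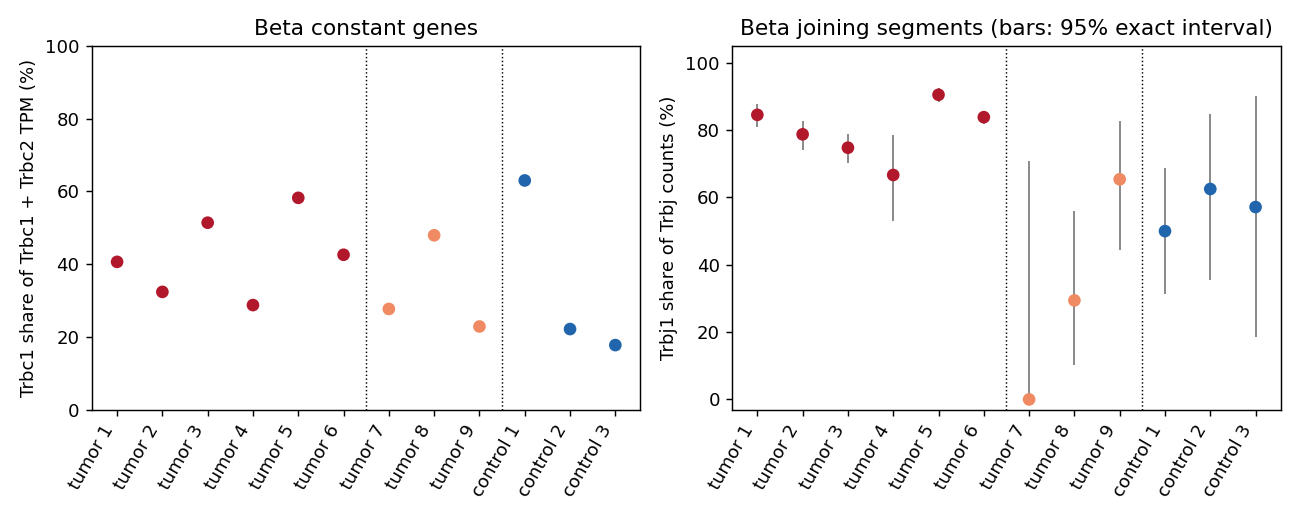
Left, Trbc1 as a percentage of Trbc1 and Trbc2 TPM, and right, Trbj1 segments as a percentage of all Trbj counts with exact 95% intervals, 1 point per library, with dotted lines between tumors 1 to 6, tumors 7 to 9 and controls. In tumors 1 to 6 the Trbj1 share of counts is 66.7% to 90.5% and the Trbc1 share of TPM 28.7% to 58.2%.

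Per length, beta constant RNA exceeded alpha constant RNA in tumors 1 to 6. The TPM ratio of Trac to Trbc1 and Trbc2 together was 0.134, 0.155, 0.556, 0.225, 0.174 and 0.357 in these tumors, and 0.697, 0.984 and 1.61 in tumors 7 to 9, against 0.530, 1.99 and 1.99 in controls 1 to 3. Tumor 3 was just above control 1, and the remaining tumors among 1 to 6 lay below all other libraries. The summed CD3 chains stood at 0.622 ± 0.133 of the summed beta constant TPM in tumors 1 to 6 (SD, n = 6) and at 1.24 to 1.88 in tumors 7 to 9, against 0.908 to 1.28 in the controls. On coding forms alone the ranges met, at 0.293 to 0.687 in tumors 1 to 6, with 0.892 to 1.26 in tumors 7 to 9, against 0.665 to 0.774 in the controls. On counts per kilobase they were wider apart, at 0.557 to 1.06 in tumors 1 to 6, with 3.44 to 6.71 in tumors 7 to 9, against 1.97 to 3.75 in the controls. By TPM, Trbc2 was the highest member in tumors 1, 2, 4 and 6, Trbc1 in tumor 5 and Trac in tumor 3.

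Ptcra (chr17:46755663-46763712, minus strand) was the lowest member in each of tumors 1 to 6 by TPM. Its level was 2.03, 9.64, 1.85, 2.46, 1.83 and 7.39 CPM in these tumors, from 15 to 116 counts, and 2.37, 2.16 and 3.25 CPM in tumors 7 to 9, against 4.01, 2.55 and 3.16 CPM in controls 1 to 3. Tumors 2 and 6 were above all controls, and the other 7 tumors overlapped the controls or lay below them. The log2 fold change was 0.17 ± 0.60 over 9 tumors (edgeR adjusted p = 0.864) and 0.10 ± 0.62 over tumors 1 to 6 (edgeR adjusted p = 0.890), and its sign changed with the scaling, to -0.23 with DESeq2 and to -1.59 by library totals. On the log2(TPM + 1) scale limma gave -1.70 and called it lower (adjusted p = 0.00624), where 80% of all genes were called lower and 0.23% higher. The ratio of Ptcra to Trac in TPM was 0.0632 in tumor 2 and 0.00455 to 0.0143 in the other libraries of tumors 1 to 6. That ratio was 0.0704 to 0.180 in tumors 7 to 9, against 0.0942 to 0.163 in the controls. The gene overlaps the model Gm26904 on the other strand and shares 6.70% of its 31-base words with other genes, up to 573 of them for 1 word, all outside its coding part.

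Against the silent receptor genes of the same library, the members of tumors 7 to 9 and of the controls stood above the median but within the range of single receptor genes. Trac was the highest member in tumors 8 and 9 and controls 2 and 3, with Trbc2 above it in tumor 7 and Trbc1 in control 1. Trac stood at 15.1, 40.9 and 18.8 times the receptor median in tumors 7 to 9, against 28.4, 30.2 and 33.7 times in controls 1 to 3. In TPM, 96.1% to 98.9% of receptor genes lay below Trac in tumors 7 to 9, against 98.8% to 98.9% in the controls. Trbc2 was at 15.7, 21.7 and 9.00 times in tumors 7 to 9, against 19.9, 11.8 and 13.9 times in controls 1 to 3. Cd3d was at 8.79, 26.2 and 12 times in tumors 7 to 9, against 12.2, 9.21 and 9.57 times in the controls.

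Cd3g was at 12.1, 8.17 and 4.08 times the receptor median in tumors 7 to 9, against 28.4, 2.66 and 2.64 times in controls 1 to 3, and Trbc1 at 5.99, 19.9 and 2.66 times, against 33.8, 3.36 and 3.00 times. Without control 1, all of tumors 7 to 9 were above the controls for Cd3g, while tumor 9 stayed below them for Trbc1. Cd3e was at 4.21, 10.5 and 4.42 times in tumors 7 to 9, against 5.38, 5.18 and 3.92 times in the controls, and Cd247 at 2.97, 6.54 and 1.35 times, against 2.82, 2.31 and 2.03 times. Ptcra was at 2.56, 2.88 and 3.38 times in tumors 7 to 9, against 4.65, 2.84 and 3.45 times in the controls, so 78.9% to 84.5% of receptor genes lay below it in tumors 7 to 9, against 83.9% to 87.7% in the controls. Tumor 8 was the highest of tumors 7 to 9 for every member but Cd3g and Ptcra. For Cd3e, a defining T cell gene, 88.1% to 90.3% of receptor genes lay below it in the controls, libraries labelled as healthy thymus. There 149, 140 and 173 receptor genes stood at or above it in controls 1 to 3. In each of tumors 1 to 5 only 1 did, and in tumor 6, 0 did.

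**Figure D5:**
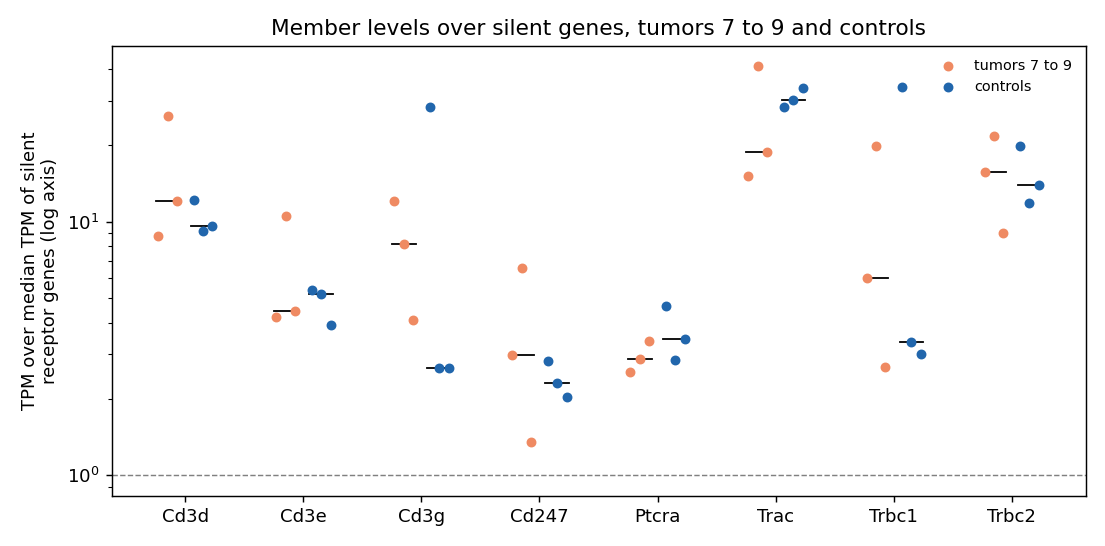
TPM of each member divided by the median TPM of the silent receptor genes of its own library (log axis), for tumors 7 to 9 and the controls, 1 point per library, with the median of each set as a bar and a dashed line at 1. The sets overlap for every member, and control 1 stands above controls 2 and 3 for Cd3g (28.4 times) and Trbc1 (33.8 times).

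In tumors 1 to 4 and 6 the same ratios were far larger for every member but Ptcra, which in tumor 1 lay within the range of the controls. Cd3e stood at 427, 278, 736, 351 and 15176 times the receptor median there, and Ptcra at 3.70, 18.4, 10.3, 7.80 and 295 times. The receptor median was lower in these tumors than in the controls, so a larger ratio can go with a lower TPM. Cd3d in tumor 3 was at 248 times and 5.29 TPM, against 9.57 times and 17.5 TPM in control 3. By TPM only Cd3e, Cd247 and Trbc2 lay above the highest control in each of tumors 1 to 6. The median was 0 in tumor 5, so no ratio was formed. A two-sided exact permutation test of these ratios over the 220 splits of 12 libraries, on log2 with 0.01 TPM added, gave p = 0.0636 to 0.259 for the members, where 0.00455 is the smallest p it allows. After adjustment over 40484 genes no member and no gene passed (0%), the members lying at adjusted p = 0.473 to 0.560 by that exact test, while 2101 genes had an unadjusted p under 0.05. Without tumors 7 to 9 the exact test gave 7 members the smallest p of its 84 splits, 0.0119 (adjusted p = 0.106), and again no gene passed. In that setting 11614 of 40484 genes had an unadjusted p under 0.05, so the 7 members are not set apart from other genes by it. With so few splits, the smallest p also limits what can pass adjustment.

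Within tumors 1 to 6 the members did not vary as 1 block. Highest over lowest CPM was 1.82 for Cd3d, 1.96 for Trbc1, 2.42 for Trbc2, 2.68 for Cd247, 3.24 for Cd3g, 3.48 for Trac, 4.32 for Cd3e and 5.26 for Ptcra. As a description over 6 libraries that share scaling factors and differ in mitochondrial share, Pearson's r of log2(CPM + 1) was 0.82 between Cd3d and Cd3e and 0.78 between Cd247 and Trac. It was -0.81 between Cd3g and Cd247 and -0.73 between Cd3g and Trac. Among 4875 genes with a mean of at least 20 CPM, those most like the summed CD3 chains over the same 6 libraries were Mbnl3 (r = 0.96), Ubb (0.93) and Hist1h3c (0.93). For Ptcra they were Hist1h1a (0.91), Tmem131 (0.91) and Tenm1 (0.89), and for Trac they were Trpc4ap, Tsc1 and Pip5k1c (each 0.97). An r above 0.9 was reached by 6 genes for the summed CD3 chains, 2 for Ptcra and 84 for Trac. The named genes were picked as the highest of 4875 over 6 libraries, so their r values are a description only and no relation was tested.

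Of 35 genes for proximal receptor signaling and coreceptors, all were tested. Over 9 tumors 0 were called (0% of all genes were called higher), with a median log2 fold change of 3.49 against -0.45 over all genes. In tumors 1 to 6, 32 were called higher and 0 lower, against 19.6% of all genes called higher, with a median log2 fold change of 3.71. In tumors 7 to 9, 0 were called, with a median of 0.28. The kinase Lck, which phosphorylates the CD3 tails, had a log2 fold change of 5.64 over tumors 1 to 6, and Zap70, which binds them, 3.74, while Syk, its relative, had 0.31 (edgeR adjusted p = 0.580). The genes of this list with the highest levels were Ptprc, the CD45 phosphatase, at 478 to 989 CPM in tumors 1 to 6, with 18.0 to 52.4 CPM in tumors 7 to 9, against 11 to 34.3 CPM in the controls, then Fyb and Cbl.

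The delta constant gene Trdc, whose locus lies inside that of the alpha chain, was high in 4 of tumors 1 to 6 and low in tumors 3 and 4. It had 1062, 413, 5, 7, 2790 and 2080 counts in tumors 1 to 6 and 12, 35 and 145 counts in tumors 7 to 9, against 149, 101 and 103 counts in controls 1 to 3. In CPM, tumors 1, 2, 5 and 6 stood at 53.8 to 133 and tumors 3 and 4 at 0.617 and 0.955, below the 3.67 to 4.94 of the controls. edgeR gave a log2 fold change of 3.45 over 9 tumors (adjusted p = 0.295), 3.83 over tumors 1 to 6 (adjusted p = 0.0392) and -0.82 over tumors 7 to 9 (adjusted p = 0.680). The gamma constant genes, given in the files under older names (Tcrg-C1 to Tcrg-C4), summed to 0 to 5.86 CPM in tumors 1 to 6, with 1.90 to 2.31 CPM in tumors 7 to 9, against 1.17 to 2.78 CPM in the controls.

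T lineage markers were called higher with the members, and those of other cell types mostly were not. In the same fit of tumors 1 to 6, 19.6% of all genes were called higher and 20.3% lower. The lists of other cell types are small, so a few calls in them do not stand apart from those shares. The 8 T lineage markers summed to 949 to 1761 CPM in tumors 1 to 6, with 36.1 to 91.1 CPM in tumors 7 to 9, against 24.2 to 48.6 CPM in the controls, and 8 of 8 were called higher in tumors 1 to 6. The 6 B cell markers summed to 2.83 to 26.5 CPM in tumors 1 to 6, with 29.6 to 35.3 CPM in tumors 7 to 9, against 31.9 to 35.3 CPM in the controls, with Ms4a1 and Cd22 called lower in tumors 1 to 6. The 6 macrophage and dendritic markers summed to 15.9 to 158 CPM in tumors 1 to 6, with 11.4 to 12.4 CPM in tumors 7 to 9, against 11.6 to 13.0 CPM in the controls, with Lyz2 and Cd68 called higher in tumors 1 to 6. The 5 fibroblast and endothelial markers summed to 180 to 1161 CPM in tumors 1 to 6, with 86.7 to 152 CPM in tumors 7 to 9, against 34.3 to 85.1 CPM in the controls, with Pecam1 called higher and Pdgfra lower. The 4 NK cell markers were at 2.23 to 19.4 CPM in tumors 1 to 6, with 17.5 to 29.1 CPM in tumors 7 to 9, against 15.5 to 19.2 CPM in the controls, the 5 thymic epithelial ones at 3.06 to 18.2 and 24.6 to 25.7 CPM, against 20 to 25.5 CPM, and the 5 erythroid ones at 2.67 to 9.96 and 3.41 to 3.64 CPM, against 4.01 to 13.1 CPM. Of these, Klre1, Foxn1 and Psmb11 were called lower in tumors 1 to 6. The erythroid marker Hbb-bs was at 0 counts in 3 of tumors 1 to 6. The part of other cell types in the member levels was not tested, and in bulk RNA fewer cells of a type and less RNA per cell cannot be told apart.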

How the data were processed

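Polyadenylated RNA of 9 tumors and 3 control thymuses was sequenced as paired ends after Trizol extraction, per the labels' protocols. The authors deposited kallisto estimated counts and TPM values for 128622 transcripts per library, per the file headers, and kallisto, FastQC and mm10 are named in the submitters' processing notes, but neither their versions nor the annotation used. Estimated counts were summed by gene symbol and rounded. edgeR 4.0.16 (TMM factors, filterByExpr by group, quasi-likelihood F test, Benjamini-Hochberg adjusted p under 0.05 over all genes) was the main test. Each SE given with an edgeR log2 fold change is its size divided by the square root of the F statistic, so it restates that test. DESeq2 1.42.0 and limma 3.58.1 were alternatives, as were other scalings and filters, libraries left out, coding forms alone and a replicate block. On simulated counts for the comparison of 9 tumors with 3 controls over 40484 genes, edgeR recovered 97.6% of 4-fold and 100% of 16-fold changes. Of its calls on simulated counts, 6.25% were false at each fold. On the real counts the same comparison called 0 genes higher. There Cd3e, at a log2 fold change of 5.05, had edgeR adjusted p = 0.128. The simulated recovery therefore does not give the power of the test on these libraries. A count was worth 0.0335 to 0.136 TMM-scaled CPM in tumors and 0.0331 to 0.0405 in controls. Silent genes were the protein-coding Olfr, Vmn1r and Vmn2r genes. Coordinates and shared 31-base words came from GENCODE M21 (GRCm38, also called mm10), promoters from RefSeq GRCm38.p6. All 8 members are named whatever their result, with the 3 most abundant genes in tumors 1 to 6 of each other list, any delta or gamma constant gene and the 3 genes of most similar pattern; Lck, Zap70, Syk, Rag1, Rag2 and the called markers of other cells were named after their values were seen. Members, lists and alternatives were chosen with earlier results of these data known.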

Additional observations from a re-analysis of the deposited data

How the results depend on the processing

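Without tumors 7 to 9, edgeR called 7564 genes higher and 7822 lower, 7 members among the higher. Tumors 7 to 9 against controls gave 9 higher, 9 lower and 0 members. DESeq2 on all libraries called 4079 genes higher, 53 lower and 6 members higher, limma with voom weights 8 and 9, and limma on log2(TPM + 1) 93 and 32388. A stricter filter gave 0 lower. Leaving out 1 library at a time gave 0 higher and 0 to 3 lower genes, and 0 members. Settings chosen after seeing the data were tumors 1 to 3 and controls without the block (below), tumors 7 to 9 against controls 2 and 3 (40 higher, 39 lower, 0 members), tumors 1 to 6 against controls 2 and 3 (6392, 3197 and 7 members) and coding forms alone, which gave the same counts of calls as the main setting. Replicate numbers showed no sign of pairing between tumors 1 to 3 and the controls. Same-number correlations of deviations from the group mean were -0.035, 0.046 and 0.013, within the -0.091 to 0.069 of different-number ones. With 3 libraries per group of unlike composition, this check cannot exclude pairing. The replicate block, on tumors 1 to 3 and the controls, gave 8085 higher, 1824 lower and 7 members, against 8709, 3566 and 7 without it. The TPM count of members above the highest control was also added after seeing the data. Splitting tumors 1 to 6 from tumors 7 to 9 rested on measured composition, not on a label. The cause of these differences was not tested beyond the change of samples each names.

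The median log2 fold change of all genes was -0.45 with TMM, -0.72 with size factors (RLE) and -1.83 with library totals alone. Relative to zero, Cd3d turned to -0.15 with totals and -0.27 with log2(TPM + 1). Ptcra turned to -0.23 (RLE), -1.59 (totals), -0.16 (stricter filter), -0.23 (DESeq2), -0.10 (voom), -0.12 (coding forms) and -1.70 on log2(TPM + 1), where limma called it lower (adjusted p = 0.00624) along with 80% of all genes; leaving out 1 library gave -0.15 to 0.26. Trac turned to -0.59 on log2(TPM + 1). In tumors 7 to 9 the values were -0.044 for Cd3g, -0.32 for Ptcra, -0.34 for Trac, -0.62 for Trbc1 and -0.037 for Trbc2, and against controls 2 and 3 alone -0.15 for Ptcra and -0.39 for Trac. On per-kilobase counts the ratio of CD3 chains to beta constant TPM moved to 0.818, and on coding forms the ratio of Cd3g to Cd3e moved to 4.15. Low counts limit Ptcra, Trbc1, Cd3g, Cd3e and Cd247 in controls 2 and 3 and the joining segments outside tumors 1 to 6. Cd247 had 59 and 39 counts in those controls, and 45, 116 and 35 in tumors 7 to 9.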

Other observations

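Among 14 genes of receptor gene recombination and early T cell regulation, 10 were called higher in tumors 1 to 6 by edgeR, where 19.6% of all genes were, and 0 were called over all 9 tumors or in tumors 7 to 9. The 3 most abundant in tumors 1 to 6 were Tcf7, Dntt and Tcf12. Tcf7, the transcription factor TCF1, was at 299 to 750.3 CPM in tumors 1 to 6 and 3.55 to 19.7 CPM in tumors 7 to 9, against 3.40 to 6.96 CPM in the controls, and Tcf12, an E protein gene, stood at 193 to 399 CPM in tumors 1 to 6 and 14.3 to 19.0 CPM in tumors 7 to 9, against 12.2 to 18.0 CPM in the controls. Dntt, which adds bases at receptor gene junctions, was at 761, 125, 66.6, 438, 151 and 200.2 CPM in tumors 1 to 6 and at 2.41 to 7.51 CPM in tumors 7 to 9, against 1.89 to 5.90 CPM in the controls. The recombinase genes did not pass, Rag1 with a log2 fold change of 2.10 over tumors 1 to 6 (edgeR adjusted p = 0.118) and Rag2 with -0.57 (edgeR adjusted p = 0.388).

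Among 5 other ITAM or adaptor chains, Fcer1g and Tyrobp were called higher in tumors 1 to 6, where 19.6% of all genes were. Their log2 fold changes were 2.30 and 2.98, while Cd79b, a B cell receptor chain, had -0.82 (edgeR adjusted p = 0.548). The 5 genes summed to 2.29 to 30.9 CPM in tumors 1 to 6, with 3.53 to 4.44 CPM in tumors 7 to 9, against 3.72 to 5.10 CPM in the controls. The lowest of tumors 1 to 6 thus lay below the controls. Fcer1g ran from 0.717 to 10.3 CPM and Tyrobp from 0.765 to 15.4 CPM in tumors 1 to 6, both highest in tumor 2, which also had the highest Lyz2, a macrophage marker, at 112 CPM. The part of macrophages in these levels was not tested.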
